A study of Mus musculus with 6 samples.

Results

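Integrins are the receptors through which macrophages grip the extracellular matrix and other cells. The transcripts of the integrin subunits and of the adhesion molecules around them were examined in unstimulated wild-type and *Scd2-m/-m* BMDMs. The set holds 41 protein-coding genes of the 40481 in the count table. Of these, 28 were taken because their symbol starts with Itga or Itgb (18 α subunits and 10 β genes, the integrin β-like gene *Itgbl1* included), leaving out *Itgb1bp* and *Itgb3bp* genes, whose products bind integrins but are not subunits. The other 13 were named one by one: *Vcam1*, *Icam1*, *Icam2*, *Pecam1*, *F11r*, *Selplg*, *Cd44*, *Cd47*, *Cd9*, *Cd81*, *Tln1*, *Fermt3* and *Vcl*. The rule uses symbols only. After a filter on low counts, 33 of the 41 were among the 14778 genes tested.

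BMDMs are macrophages grown from mouse bone marrow in medium that drives macrophage differentiation, and 1 poly(A)-selected library was sequenced from each of 3 wild-type samples (label WT) and 3 *Scd2-m/-m* samples (label Scd2-KO). In *Scd2-m/-m* mice, floxed alleles of *Scd2*, which encodes a stearoyl-CoA desaturase, are deleted by Cre made from the lysozyme M gene, so deletion is limited to myeloid cells and takes place as they differentiate. The study used male and female mice aged 2 to 5 months. All 6 libraries held *Xist* counts, between 32646 and 48965, and the Y-linked genes *Ddx3y*, *Eif2s3y* and *Kdm5d* were at 0 in each, while *Uty* held 6, 0 and 5 counts in wild-type replicates 1, 2 and 3 and none elsewhere. The sources used here do not give the mouse, day or batch of a library, nor whether the wild-type mice carried floxed alleles or Cre, so loss of *Scd2* and presence of Cre cannot be told apart, and the p-values measure the spread between these samples, which may be technical.

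An integrin is a dimer of an α and a β chain, and the partners set what it binds. In leukocytes the β2 chain pairs with *Itgal* (LFA-1), *Itgam* (Mac-1), *Itgax* or *Itgad* products to bind ICAMs and complement fragments, and α4 pairs with β1 or β7 to bind VCAM-1, fibronectin or MAdCAM-1. Talin and kindlin bind the β tail from inside the cell, switch the receptor to its high-affinity state and, with vinculin, tie it to actin. An mRNA level does not give the amount of dimer on the surface.

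*Vcam1* was 4.27 times as high and *Itgb7* 3.15 times as high in *Scd2-m/-m* as in wild-type BMDMs, while *Itga9*, *Itgal* and *Pecam1* fell to 28.1%, 34.7% and 39.9% of their wild-type means. *Itgam* and *Itgb2*, the most abundant α and β subunits, did not pass the test, nor did *Itgb1* and *Itga4*. Over the set, 12 of the 33 tested genes (36.4%) were called at an edgeR false discovery rate (FDR) below 0.05, and 17.5% of all tested genes were. Of the 12, 5 were higher in *Scd2-m/-m* BMDMs (*Vcam1*, *Itgb7*, *Icam2*, *Selplg* and *Vcl*) where 9.65% of all genes were higher, and 7 were lower (*Itga9*, *Itgal*, *Pecam1*, *Itgb5*, *Cd44*, *Icam1* and *Tln1*) where 7.84% of all genes were. The 33 genes included 21 with a mean above 10 CPM, and 10 of the 12 called genes were among them. CPM are counts per 1000000 counts of the library, after library sizes were scaled with TMM factors in edgeR.

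Differences were mixed in direction. The median log2 fold change over the 33 genes was −0.11, against 0.0039 over all tested genes, and the median size was 0.28 against 0.16. An FDR below 0.05 together with a log2 fold change beyond 1 in either direction was met by 6 genes of the set, where 2.84% of all genes met it, and beyond 2 by *Vcam1* alone of the 33, where 0.663% did. The 3 wild-type libraries lay wholly above or below the 3 *Scd2-m/-m* libraries for 15 of the 33 genes (34.9% of all tested genes). Of these, 6 were higher in *Scd2-m/-m* BMDMs, where 17.9% of all genes were, and 9 were lower, where 17.0% were. They were all 12 called genes plus *Itgad*, *Itga8* and *Cd81*.

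**Figure D1:**
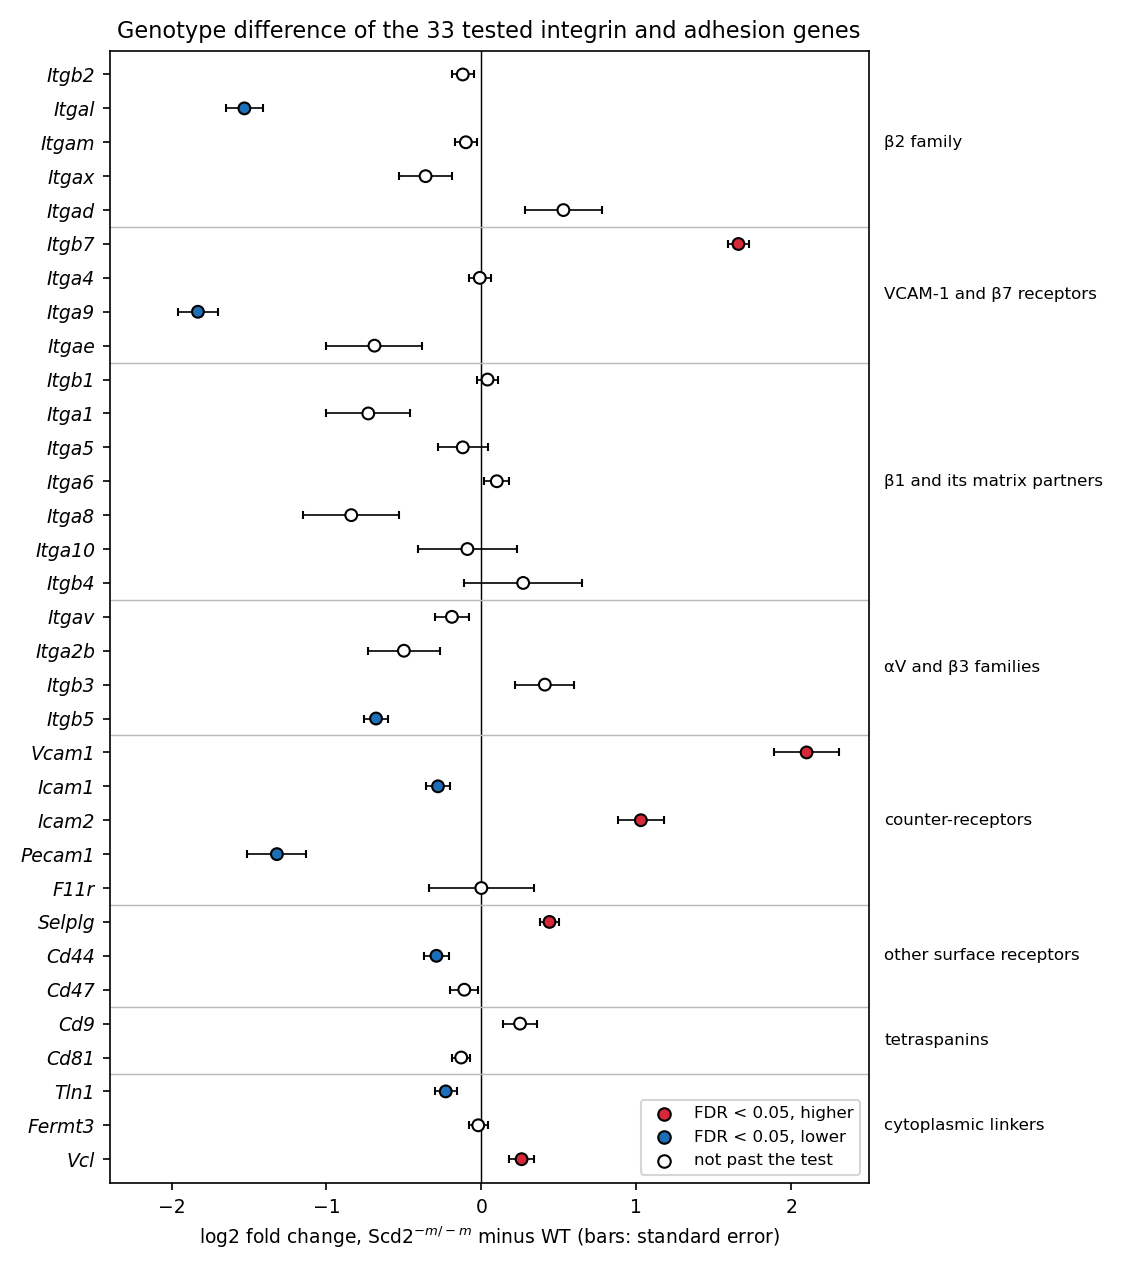
Log2 fold change (*Scd2-m/-m* minus wild-type, x axis) of each of the 33 tested genes, grouped by role, with bars for the standard error over 3 and 3 libraries; red and blue points passed an FDR of 0.05 and white points did not. *Vcam1* at 2.10 and *Itga9* at −1.83 mark the ends, and no gene among β1 and its matrix partners is coloured.

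Facts of the libraries bear on how these values are read. The library totals ran from 46285176 to 57629638 counts, so that 3 counts equal 0.0516 to 0.065 CPM. *Scd2* itself stood at 66.9, 77.8 and 62.7 CPM in wild-type and at 59.5, 38 and 39.8 CPM in *Scd2-m/-m* libraries (log2 fold change −0.59, SE 0.19, FDR 0.1), so *Scd2-m/-m* replicate 1 lay near the wild-type libraries for the targeted gene. The deposited counts are per gene and do not show the deleted exons on their own. The second principal component, which held 16.5% of the variance, spread the wild-type libraries, at 28.07, −10.44 and −21.06 for replicates 1, 2 and 3. Without *Scd2-m/-m* replicate 1 the calls in the set were 5 higher and 9 lower. Without wild-type replicate 1, 2 or 3, 5 genes were higher each time, and 6, 4 and 9 were lower. The labelled cell type was checked with 10 macrophage markers: all had counts, and their sum lay between 37576 and 38766 CPM in wild-type and between 21697 and 22290 CPM in *Scd2-m/-m* libraries, with 1 called higher (*Cd68*) and 6 called lower, among them *Lyz2*, the gene that carries the Cre in lysozyme M-Cre mice, and *Csf1r* and *Adgre1*. Much of the lower sum was *Lyz2*, at a mean of 22751 CPM in wild-type against 9029 CPM, and the other 9 markers summed to 15477 to 15576 CPM in wild-type and to 12832 to 13236 CPM in *Scd2-m/-m* libraries. All 12 tested markers of dividing cells were called higher, with sums of 53.5 to 62.7 CPM in wild-type and 166 to 189 CPM in *Scd2-m/-m* libraries. The part of either in the adhesion results was not tested. In bulk RNA, fewer cells of a type and less RNA per cell cannot be told apart.

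For the β subunits, the stretches just before the transcription start are shown for the member that rose, *Itgb7*, the member that fell, *Itgb5*, and *Itgb1*, which was not called, so that the DNA of genes with different behaviour can be read side by side. They come from RefSeq (GRCm38.p6), whose promoter table matched 29 of the 41 genes. Capitals mark matches on either strand to a core of ETS factors such as PU.1 (GAGGAA), to a RUNX motif (TGNGGT) or to an NF-kB motif (GGG and CC with any 5 bases between), which occur in 23.3%, 40.1% and 45.8% of 32851 mouse promoter windows of 250 bases. The *Itgb7* window is chr15:102231945-102232185 on the minus strand, with 9 exonic bases cut from its end, the *Itgb5* window is chr16:33829415-33829664 on the plus strand, and the *Itgb1* window is chr8:128685404-128685653 on the plus strand.
Itgb7: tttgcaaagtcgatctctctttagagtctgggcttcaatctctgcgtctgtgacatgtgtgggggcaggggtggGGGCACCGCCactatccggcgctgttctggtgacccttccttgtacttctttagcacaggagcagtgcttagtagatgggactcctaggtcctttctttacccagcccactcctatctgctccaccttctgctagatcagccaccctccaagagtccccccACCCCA
Itgb5: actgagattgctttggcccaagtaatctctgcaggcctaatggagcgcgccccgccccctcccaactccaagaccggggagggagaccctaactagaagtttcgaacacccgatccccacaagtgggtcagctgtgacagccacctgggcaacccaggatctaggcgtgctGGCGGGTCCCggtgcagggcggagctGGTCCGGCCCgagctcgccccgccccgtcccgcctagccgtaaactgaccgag
Itgb1: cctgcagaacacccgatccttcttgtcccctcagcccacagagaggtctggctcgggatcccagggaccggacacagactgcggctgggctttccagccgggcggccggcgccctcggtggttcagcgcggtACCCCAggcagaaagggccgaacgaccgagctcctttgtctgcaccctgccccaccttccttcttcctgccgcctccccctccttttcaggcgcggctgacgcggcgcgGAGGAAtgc
In these letters *Itgb7* held 1 RUNX and 1 NF-kB match, *Itgb5* held 2 NF-kB matches, and *Itgb1* held 1 ETS and 1 RUNX match. The motifs do not overlap one another in these windows. A match is a run of letters and not a bound site.

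Among the β2 integrins, which carry most of the leukocyte-specific adhesion of macrophages, the α subunit of LFA-1 fell and the rest of the family did not pass the test (1 of 5 tested genes lower, 0 higher). *Itgal* (ENSMUSG00000030830, chr7:127296260-127335138, plus strand of GRCm38) stood at 509, 407 and 372 CPM in wild-type and at 163, 153 and 131 CPM in *Scd2-m/-m* libraries. The highest *Scd2-m/-m* library was thus well under the lowest wild-type library. The mean went from 429 ± 71.3 CPM to 149 ± 16.5 CPM (SD, n = 3), and the log2 fold change was −1.53 with an SE of 0.12 (edgeR FDR 6.52e-05).

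*Itgb2*, the shared β chain, was measured at 803, 731 and 668 CPM in wild-type and at 704, 678 and 645 CPM in *Scd2-m/-m* libraries. *Itgam*, the α chain of the complement receptor Mac-1 and, like *Itgal*, a gene of chromosome 7, was at 1336, 1253 and 1211 CPM against 1146, 1150 and 1257 CPM. The libraries of both genes overlapped between genotypes. Their log2 fold changes were −0.12 (95% interval −0.28 to 0.04, FDR 0.303) and −0.10 (−0.24 to 0.05, FDR 0.368), so that a fall of the size seen for *Itgal* lies outside both intervals.

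The remaining β2 partners were low. *Itgax*, the CD11c chain used to mark dendritic cells and some tissue macrophages, was at 6.73, 9.91 and 7.57 CPM in wild-type and at 7.92, 5.37 and 5.57 CPM in *Scd2-m/-m* libraries (log2 fold change −0.36, SE 0.17, FDR 0.19), with overlap, though it passed the test without *Scd2-m/-m* replicate 1 (−0.56, FDR 0.0319) and with no filter on low counts (−0.35, FDR 0.0358). *Itgad*, the CD11d chain, was at 0.705, 0.867 and 0.925 CPM against 1.4, 1.15 and 1.07 CPM. The groups did not overlap, but its log2 fold change of 0.53 (SE 0.25) had an FDR of 0.162. *Itgb2l*, a gene similar to *Itgb2* that is known from neutrophils, held 2, 0 and 4 counts in wild-type and 4, 22 and 15 counts in *Scd2-m/-m* libraries and was not tested. Reads of *Itgb2* could be split between these similar genes by the counting step, whose tool the sources used here do not name.

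*Vcam1* and its receptors went different ways. The β7 chain rose, the α9 chain fell, and α4 and β1, which form the main VCAM-1 receptor VLA-4, stayed within their spread. *Vcam1* (ENSMUSG00000027962, chr3:116109949-116129688, minus strand), the immunoglobulin-family ligand that arrests leukocytes on endothelium and marks macrophages of the bone marrow, stood at 2.96, 5.31 and 4.68 CPM in wild-type and at 17.7, 22 and 15.7 CPM in *Scd2-m/-m* libraries, from 147, 245 and 238 counts against 989, 1104 and 912 counts. The lowest *Scd2-m/-m* library lay well above the highest wild-type one. The mean went from 4.32 ± 1.22 CPM to 18.5 ± 3.2 CPM, and the log2 fold change of 2.10 had an SE of 0.21 (FDR 0.000243).

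*Itgb7* (ENSMUSG00000001281, chr15:102215995-102231944, minus strand), the β chain of the gut-homing integrin α4β7, was at 11.1, 11.1 and 10.7 CPM in wild-type and at 33.8, 36.4 and 33.4 CPM in *Scd2-m/-m* libraries. Replicates differed little, with means of 11 ± 0.238 and 34.5 ± 1.64 CPM, and the log2 fold change of 1.66 (SE 0.07) had the lowest FDR in the set, 8.01e-09. *Itga4* was at 349, 365 and 375 CPM in wild-type and at 327, 361 and 394 CPM in *Scd2-m/-m* libraries, the latter spanning the former. Its log2 fold change was −0.01 (95% interval −0.16 to 0.14, FDR 0.95).

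*Itga9* (ENSMUSG00000039115, chr9:118606690-118901003, plus strand) encodes the chain that, with β1, binds VCAM-1, osteopontin and tenascin-C. Its libraries stood at 16.2, 20.8 and 16.3 CPM in wild-type and at 5.64, 4.06 and 5.28 CPM in *Scd2-m/-m* BMDMs, and the groups lay far apart. It was 3.56 times as high in wild-type, with means of 17.8 ± 2.59 and 4.99 ± 0.831 CPM (log2 fold change −1.83, SE 0.13, FDR 1.33e-06). *Itgae*, the αE chain that pairs with β7, was low. It was at 0.705, 1.04 and 1.36 CPM in wild-type and at 0.753, 0.716 and 0.465 CPM in *Scd2-m/-m* libraries, with overlap (log2 fold change −0.69, SE 0.31, FDR 0.16).

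**Figure D2:**
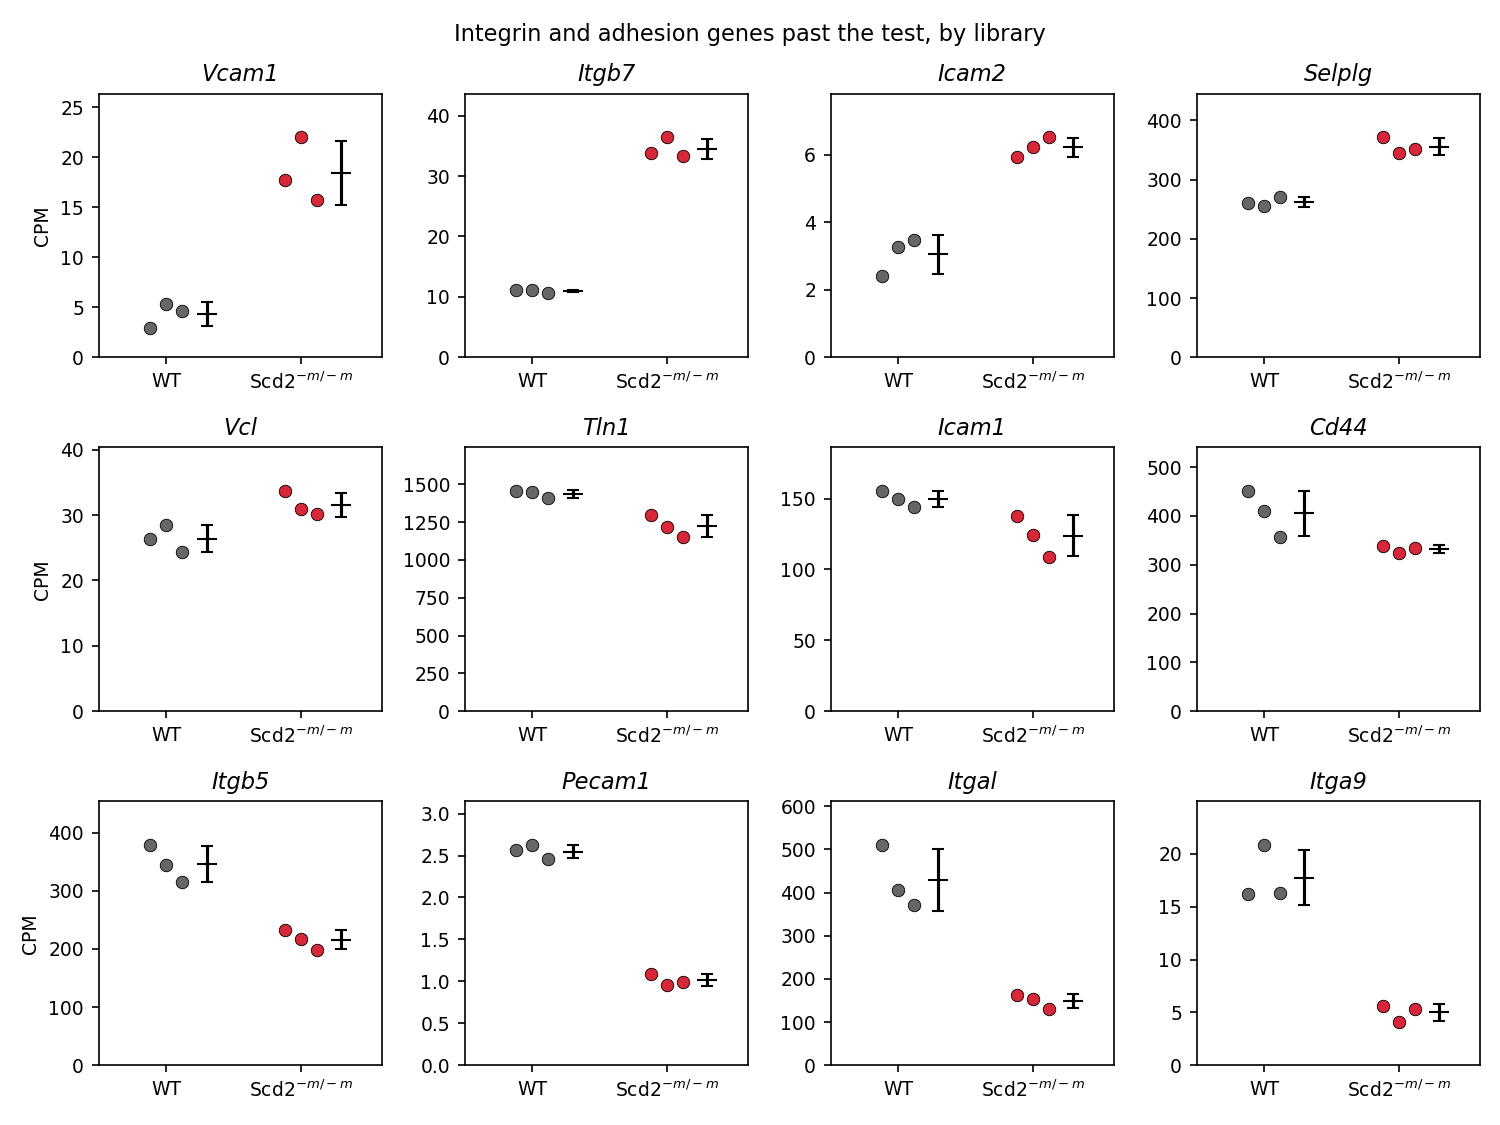
Level in CPM (y axis, from 0) of each of the 12 called genes in the 3 wild-type (grey) and 3 *Scd2-m/-m* (red) libraries, 1 point per library, with the mean and SD beside each group. In every panel the points of the genotypes are apart, by a wide margin in *Vcam1*, *Itgb7*, *Itgal* and *Itga9* and by a narrow one in *Icam1*, *Cd44*, *Tln1* and *Vcl*.

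Among β1 and the subunits that bind collagen, laminin and fibronectin, 0 of 7 tested genes were called by edgeR in either direction. Of the 7, 2 had an unadjusted edgeR p below 0.05 and DESeq2 called 1. Over all 14778 tested genes edgeR called 17.5%, and DESeq2 called 2708 genes. The share of all genes with an unadjusted p below 0.05 is not given here. *Itgb1*, the β chain with the largest number of partners, was at 412, 385 and 368 CPM in wild-type and at 378, 397 and 423 CPM in *Scd2-m/-m* libraries, with overlap (log2 fold change 0.04, 95% interval −0.10 to 0.18, FDR 0.725). *Itga5*, of the fibronectin receptor, and *Itga6*, of laminin receptors, stood between 127 and 216 CPM, with log2 fold changes of −0.12 (SE 0.16) and 0.10 (SE 0.08).

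The other 4 tested genes of this group lay under 3 CPM. *Itga8*, a chain that binds nephronectin, was at 1.87, 2.54 and 1.65 CPM against 0.591, 1.17 and 1.6 CPM, without overlap. Its log2 fold change of −0.84 (SE 0.31) missed the threshold at an FDR of 0.0785, and was past it with DESeq2 (−0.85, FDR 0.037), with the replicate number as a block (−0.90, FDR 0.0425), with no filter on low counts (−0.84, FDR 0.00504) and without *Scd2-m/-m* replicate 3 (−1.20, FDR 0.0246). *Itga1*, of a collagen receptor, had −0.73 (SE 0.27, FDR 0.0858) with overlap, and passed without wild-type replicate 3 (−0.90, FDR 0.0411), without *Scd2-m/-m* replicate 3 (−0.99, FDR 0.0418) and with no filter (−0.72, FDR 0.0476). *Itga10* and *Itgb4* had −0.09 and 0.27 with SEs of 0.32 and 0.38. The 8 genes left untested for low counts (*Itga2*, *Itga3*, *Itga7*, *Itga11*, *Itgb2l*, *Itgb6*, *Itgb8* and *Itgbl1*) held no more than 22 counts in any library, and *Itgbl1* held 0 counts in all 6, which allows up to 0.0516 to 0.065 CPM by library from counting error alone.

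In the αV and β3 families, whose receptors bind vitronectin, osteopontin and latent TGF-β, *Itgb5* fell and the other 3 tested genes were not called. *Itgb5* (ENSMUSG00000022817, chr16:33829665-33949338, plus strand) was at 378, 345 and 315 CPM in wild-type and at 232, 217 and 199 CPM in *Scd2-m/-m* libraries, without overlap. It fell to 62.4% of the wild-type mean, from 346 ± 31.5 to 216 ± 16.8 CPM (log2 fold change −0.68, SE 0.08, FDR 3.95e-05). Its partner *Itgav* was at 146, 119 and 101 CPM in wild-type and at 108, 105 and 107 CPM in *Scd2-m/-m* libraries. The *Scd2-m/-m* values of *Itgav* fell within the wild-type range (log2 fold change −0.19, 95% interval −0.44 to 0.05, FDR 0.274), and it passed the test without wild-type replicate 3, the lowest of its group (−0.31, FDR 0.016), and with no filter (−0.19, FDR 0.0408). *Itgb3* and *Itga2b*, which together form the platelet fibrinogen receptor, were between 1.03 and 4.19 CPM, with log2 fold changes of 0.41 (SE 0.19, FDR 0.167) and −0.50 (SE 0.23, FDR 0.168). *Itga2b* passed without *Scd2-m/-m* replicate 1 (−0.78, FDR 0.0368).

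Per kilobase of exons, which allows levels of different genes to be compared, *Itgam* led the α subunits in both genotypes. It stood at 252 ± 12.7 CPM per kb in wild-type and at 236 ± 12.5 CPM per kb in *Scd2-m/-m* BMDMs (SD, n = 3). *Itgal* was the second α subunit in wild-type BMDMs at 65.3 ± 10.9 CPM per kb, apart from *Itga5* below it at 31.5 ± 6.47. In *Scd2-m/-m* BMDMs it stood at 22.7 ± 2.51 CPM per kb, in a run of *Itga5*, *Itga4*, *Itgal* and *Itga6* whose neighbours overlapped between libraries. That run depended on the length used. By the longest transcript *Itga6* (47.1 CPM per kb) was apart from *Itga4* (36.9) in *Scd2-m/-m* BMDMs, and *Itgal* was at 28.6. *Itga9* was above *Itgax* in wild-type (2.31 against 1.68 CPM per kb) and below it in *Scd2-m/-m* BMDMs (0.649 against 1.31), with no overlap of the neighbours in either. With the longest transcript as the length, the wild-type libraries of *Itga9* and *Itgax* overlapped. *Itgav* stood above both, at 11.4 and 9.94 CPM per kb, and the remaining 6 tested α subunits were under 0.5 CPM per kb.

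Among β subunits the order was *Itgb2* at 240 CPM per kb, then *Itgb5* and *Itgb1*, which overlapped at 97.5 and 95.1, then *Itgb7*, *Itgb3* and *Itgb4* at 3.96, 0.451 and 0.0626 in wild-type BMDMs. In *Scd2-m/-m* BMDMs *Itgb1* (97.9 CPM per kb) was apart from *Itgb5* (60.8), and *Itgb7* reached 12.5. By the longest transcript 16 of 20 subunits kept their wild-type rank, while *Itga5* traded places with *Itga6* and *Itga1* with *Itga10*.

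**Figure D3:**
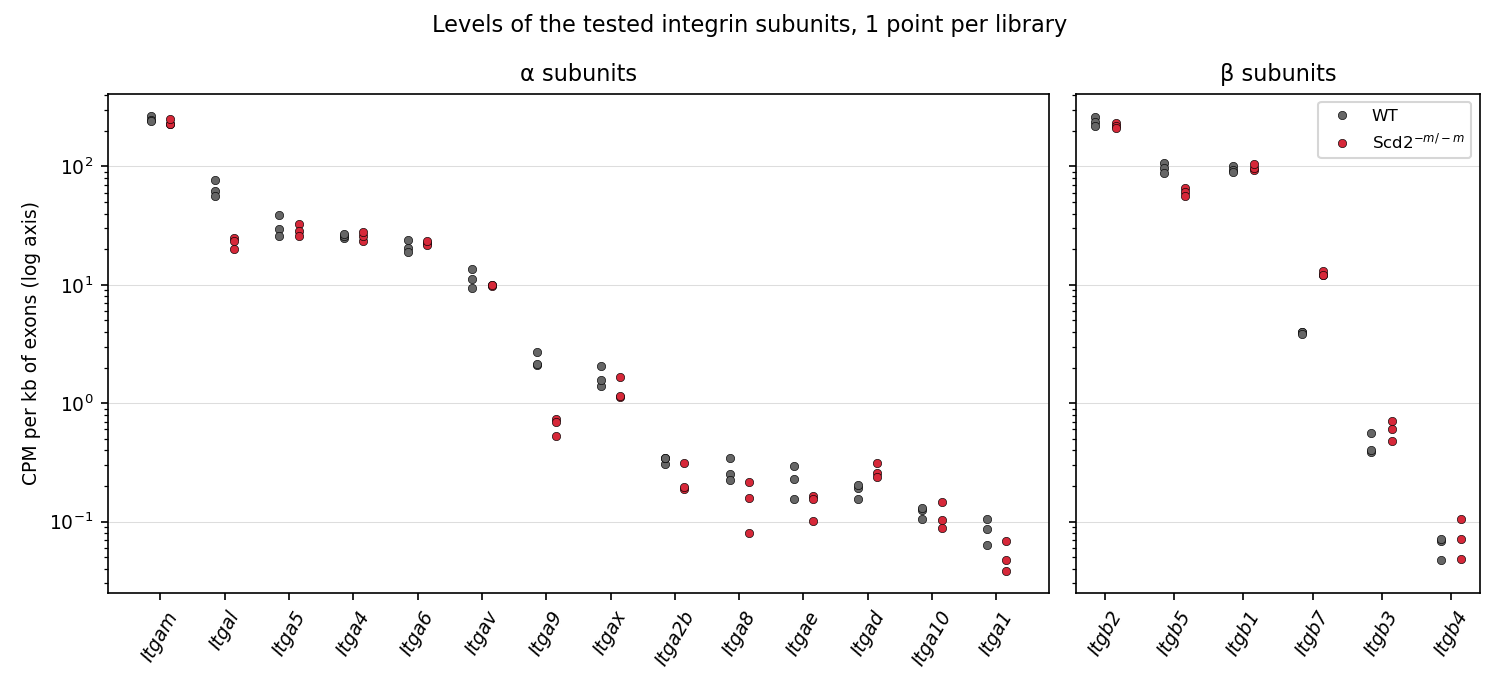
Level of the 20 tested integrin subunits in CPM per kb of exons (log axis), α subunits on the left and β subunits on the right in order of the wild-type mean, with 1 point per library, wild-type in grey and *Scd2-m/-m* in red. Values span from *Itgam* at 252 to *Itgb4* at 0.0626 CPM per kb in wild-type, and the colours are furthest apart at *Itgal*, *Itga9* and *Itgb7*.

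The ratio of subunit transcripts within a library is free of the scaling between libraries. The ratios given here were chosen after the values were seen and are descriptions of them. *Itgal* per kb was 29.4%, 25.9% and 25.9% of *Itgb2* in wild-type and 10.8%, 10.5% and 9.45% in *Scd2-m/-m* libraries. *Itgam* was 101%, 104% and 110% of *Itgb2* in wild-type against 98.9%, 103% and 118%. The *Itgal* ratio was apart between genotypes where that of *Itgam* overlapped.

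Likewise *Itgb7* was 3.96%, 4.26% and 4.28% of *Itgb1* in wild-type libraries and 13.1%, 13.5% and 11.6% in *Scd2-m/-m* libraries. *Itga9* was 8.42%, 10.3% and 7.92% of *Itga4* against 3.14%, 2.04% and 2.44%. Neither ratio overlapped between genotypes. In both genotypes the per-kb level of *Itgb7* stayed well below that of *Itgb1*, and that of *Itga9* well below that of *Itga4*.

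**Figure D4:**
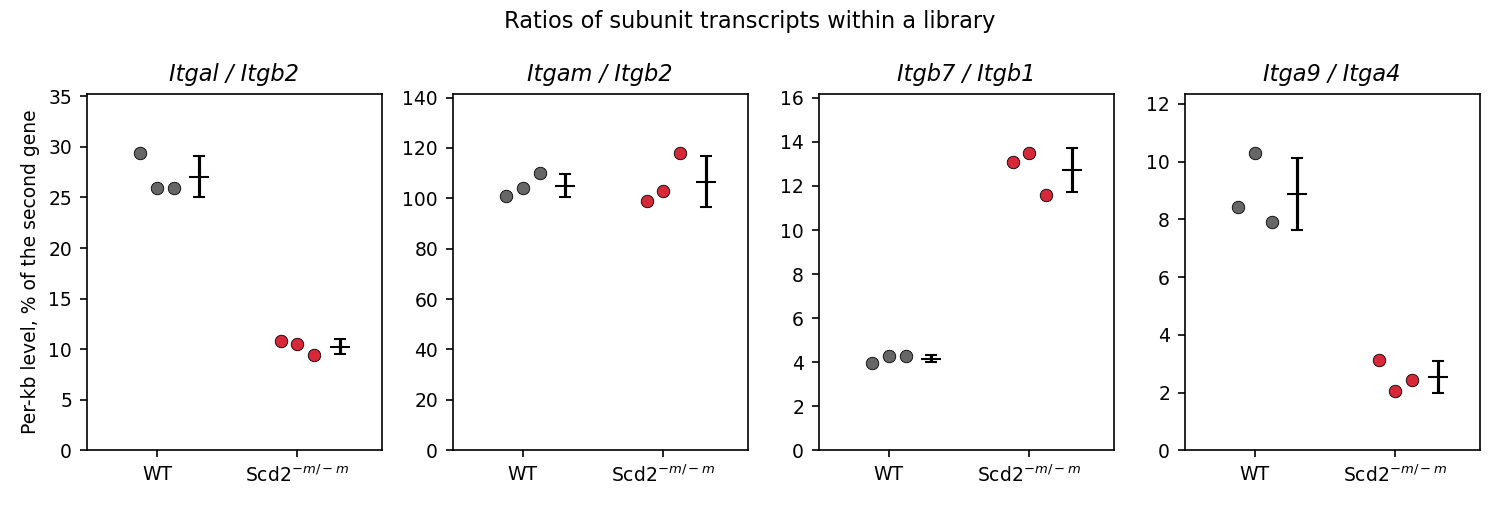
Per-kb level of a subunit as a percentage of another in the same library (y axes from 0), with 1 point per library for wild-type (grey) and *Scd2-m/-m* (red) and the mean and SD beside them. *Itgal* over *Itgb2* went from 27.1 ± 2.07% to 10.2 ± 0.698% and *Itgb7* over *Itgb1* from 4.16 ± 0.179% to 12.8 ± 0.995%, while *Itgam* over *Itgb2* was 105 ± 4.63% and 107 ± 10.3%.

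The immunoglobulin-family counter-receptors split, with *Vcam1* and *Icam2* higher and *Icam1* and *Pecam1* lower of 5 tested. *Icam2* (chr11:106377656-106388075, minus strand), a ligand of LFA-1 that is constitutive on endothelium and present on leukocytes, was at 2.4, 3.27 and 3.48 CPM in wild-type and at 5.95, 6.23 and 6.52 CPM in *Scd2-m/-m* libraries, without overlap. It was 2.04 times as high, with means of 3.05 ± 0.576 and 6.23 ± 0.286 CPM (log2 fold change 1.03, SE 0.15, FDR 0.000297). *Icam1* (chr9:21015985-21028817, plus strand), the inducible ligand of LFA-1 and Mac-1, was far more abundant, at 155, 150 and 144 CPM in wild-type and at 138, 124 and 109 CPM in *Scd2-m/-m* libraries. The groups were apart by a small margin, at 82.5% of the wild-type mean (log2 fold change −0.28, SE 0.08, FDR 0.0228). That call was lost without wild-type replicate 1 (−0.25, FDR 0.0527), wild-type replicate 2 (−0.27, FDR 0.0885), *Scd2-m/-m* replicate 2 (−0.28, FDR 0.0936) or *Scd2-m/-m* replicate 3 (−0.19, FDR 0.0721).

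*Pecam1* (ENSMUSG00000020717, chr11:106654217-106750628, minus strand), an adhesion and signalling receptor of endothelium, platelets and leukocytes, was at 2.56, 2.62 and 2.46 CPM in wild-type and at 1.09, 0.955 and 0.998 CPM in *Scd2-m/-m* libraries. These groups were tight and far apart (2.55 ± 0.0827 and 1.02 ± 0.0707 CPM, log2 fold change −1.32, SE 0.19, FDR 0.000257). *F11r*, the junctional adhesion molecule JAM-A, was between 3.25 and 7.98 CPM in wild-type and within that range in *Scd2-m/-m* libraries (log2 fold change 0.00, 95% interval −0.81 to 0.81), an interval too wide to speak of likeness.

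Several of these genes are also used to mark other cells, so marker lists of those cells were read beside them. Of 10 endothelial markers 5 could be tested, with 1 called, *Vwf*, which was higher, and the list summed to 48.1 to 55.3 CPM in wild-type and 75.3 to 93.2 CPM in *Scd2-m/-m* libraries, of which the genes other than *Vwf* made up 8.4 to 9.63 CPM and 10.1 to 10.5 CPM, while *Robo4* was at 0 in all 6. Megakaryocyte and platelet markers summed to 59.8 to 69.2 CPM and 48.7 to 50.3 CPM, with *Pf4* lower among 5 tested. Neutrophil and granulocyte markers summed to 22.4 to 26 CPM and 33.9 to 43.9 CPM, with 5 of 8 tested higher and 0 lower, and mast cell markers to 0.954 to 1.35 CPM and 1.9 to 2.51 CPM, with *Tpsb2* and *Cma1* at 0. Of 9 tested dendritic cell markers 4 were higher (*Ccr7*, *Bcl11a*, *Dpp4* and *Flt3*) and 0 lower. Their sum was nearly all *Tcf4* and overlapped (180 to 217 and 184 to 211 CPM), while the other 9 summed to 1.67 to 2.18 CPM in wild-type and to 3.38 to 5.32 CPM in *Scd2-m/-m* libraries. The sums overlapped too for B cell markers (158 to 231 and 213 to 248 CPM), with 3 of 5 higher. T and NK cell, erythroid and stromal lists overlapped in sum too, with 0 of 2, 0 of 4 and 1 of 5 tested genes called. Their part in the differences of *Vcam1*, *Itgb7*, *Icam2* and *Pecam1* was not tested.

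Of the other surface receptors, *Selplg* rose, *Cd44* fell and *Cd47* was not called. *Selplg* (chr5:113818536-113832644, minus strand), which encodes the P-selectin ligand PSGL-1 on which leukocytes roll, was at 261, 255 and 271 CPM in wild-type and at 371, 345 and 351 CPM in *Scd2-m/-m* libraries, without overlap. It was 1.36 times as high (263 ± 8.02 to 356 ± 13.8 CPM, log2 fold change 0.44, SE 0.06, FDR 0.000176). *Cd44* (chr2:102811141-102901665, minus strand), the hyaluronan receptor, was at 450, 409 and 357 CPM in wild-type and at 339, 323 and 335 CPM in *Scd2-m/-m* libraries, apart by a small margin.

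The log2 fold change of *Cd44* was −0.29 (SE 0.08, FDR 0.0202), at 82.1% of wild-type. It lost the call without wild-type replicate 1 (−0.20, FDR 0.0633), wild-type replicate 2 (−0.28, FDR 0.0896), *Scd2-m/-m* replicate 2 (−0.26, FDR 0.115) or *Scd2-m/-m* replicate 3 (−0.29, FDR 0.0548). *Cd47*, the "do not eat me" ligand of SIRPα that also binds thrombospondin, was at 470, 607 and 599 CPM in wild-type and at 538, 521 and 492 CPM in *Scd2-m/-m* libraries, with overlap (log2 fold change −0.11, SE 0.09, FDR 0.44). Without wild-type replicate 1, its lowest library, it passed at −0.22 (FDR 0.0322).

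The tetraspanins *Cd9* and *Cd81*, membrane organisers that associate with integrins, were called neither by edgeR nor by DESeq2 and had unadjusted edgeR p-values of 0.0445 and 0.0362. *Cd9* was at 151, 119 and 107 CPM in wild-type and at 147, 151 and 150 CPM in *Scd2-m/-m* libraries. Only wild-type replicate 1 reached the *Scd2-m/-m* values: with it the log2 fold change was 0.25 (SE 0.11, FDR 0.154), and without it 0.40 (FDR 0.000813). With no filter on low counts *Cd9* also passed (0.25, FDR 0.00321), at the same log2 fold change with a smaller SE (0.07). *Cd81* was at 203, 192 and 201 CPM in wild-type and at 185, 174 and 185 CPM in *Scd2-m/-m* libraries, apart by a small margin, with a log2 fold change of −0.13 (SE 0.06, FDR 0.134).

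Among the cytoplasmic linkers talin fell slightly, vinculin rose slightly and kindlin-3 was not called. *Tln1* (chr4:43531519-43562691, minus strand), encoding talin-1, was at 1453, 1451 and 1407 CPM in wild-type and at 1295, 1220 and 1150 CPM in *Scd2-m/-m* libraries, without overlap, and fell to 85% of the wild-type mean (log2 fold change −0.23, SE 0.07, FDR 0.0248). *Vcl* (chr14:20929398-21033676, plus strand), encoding vinculin, was at 26.4, 28.4 and 24.3 CPM against 33.6, 30.9 and 30.2 CPM, also without overlap, and was 1.2 times as high (log2 fold change 0.26, SE 0.08, FDR 0.0294). *Fermt3*, encoding the blood-cell kindlin, was at 444, 438 and 466 CPM against 464, 451 and 418 CPM (log2 fold change −0.02, 95% interval −0.15 to 0.12, FDR 0.896).

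Both linker differences were small, and each call was lost when any 1 of several libraries was left out. The log2 fold changes moved less, from −0.28 to −0.19 for *Tln1* and from 0.2 to 0.31 for *Vcl* over 14 other settings. *Tln1* was no longer called without wild-type replicate 2 (−0.23, FDR 0.11), *Scd2-m/-m* replicate 2 (−0.23, FDR 0.112) or *Scd2-m/-m* replicate 3 (−0.19, FDR 0.0804). *Vcl* was no longer called without wild-type replicate 1 (0.26, FDR 0.0575), wild-type replicate 3 (0.20, FDR 0.115), *Scd2-m/-m* replicate 1 (0.21, FDR 0.0893) or *Scd2-m/-m* replicate 2 (0.27, FDR 0.0853). Exons of *Ap3m1* on the opposite strand cover 25.5% of the exonic bases of *Vcl*, and the sources used here do not say whether the counts use strand.

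The other genes of integrin adhesion were read as 6 lists that leave out the 41 genes. Together 131 were tested, of which 26 were higher and 24 lower (38.2% called), with a median log2 fold change of −0.01. Over all tested genes 17.5% were called, 9.65% higher and 7.84% lower. The most one-sided list was that of kinases, phosphatases and GTPases downstream of leukocyte integrins, with 8 of 18 lower and 0 higher (44.4% called). *Src*, the tyrosine kinase that acts at podosomes, was at 13.5, 12.7 and 11.7 CPM in wild-type and at 6.76, 7.66 and 6.31 CPM in *Scd2-m/-m* libraries, without overlap (log2 fold change −0.87, SE 0.10, FDR 6.77e-05), and the phosphatase genes *Ptpn6* and *Ptpn11* fell by 0.29 and 0.30 on the log2 scale. Focal adhesion and podosome genes were called in both directions, 8 higher and 6 lower of 28 tested (50% called). *Parvg*, *Nedd9* and *Zyx* rose (0.68, 0.71 and 0.40), and *Hcls1*, *Vasp* and *Sh3pxd2a*, the last a podosome scaffold, fell (−0.45, −0.43 and −0.35). Integrin activators and linkers held 2 lower, *Filip1l* (−1.19) and *Fyb* (−0.23), and 0 higher of 18 tested (11.1% called, below the share over all genes).

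Of 23 tested matrix and soluble ligands of integrins 6 were higher and 3 lower (39.1% called). *Spp1*, encoding osteopontin, a ligand of α9β1 and αV integrins, was at 703, 481 and 493 CPM in wild-type and at 1414, 1360 and 1163 CPM in *Scd2-m/-m* libraries (log2 fold change 1.23, SE 0.16, FDR 0.0018). *Thbs1*, encoding thrombospondin-1, a ligand of CD47, was at 398, 438 and 443 CPM against 139, 144 and 160 CPM (−1.53, SE 0.07, FDR 1.15e-08). Neither overlapped between genotypes. *Fn1*, encoding fibronectin, was at 13.9, 19.8 and 10.6 CPM against 7.85, 9.25 and 5.26 CPM, also without overlap, and missed the threshold (−0.99, SE 0.30, FDR 0.0863). *Vwf* (0.80) and *Emilin1* (0.55) rose, and *Tgfbi* (−0.44) and *Tgfb1* (−0.22) fell.

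Among 15 other tetraspanins tested (33.3% called), *Tspan32* and *Cd53* rose (0.46 and 0.26) and *Cd82*, *Tspan14* and *Cd151* fell (−0.37, −0.20 and −0.25). Of 29 other adhesion receptors and ligands tested, 10 were higher and 2 lower (41.4% called). The highest of these, *Hmmr*, whose product binds hyaluronan and also the mitotic spindle, was at 0.201, 0.39 and 0.512 CPM in wild-type and at 4.32, 3.7 and 2.94 CPM in *Scd2-m/-m* libraries (log2 fold change 3.30, SE 0.28, FDR 2.99e-06). *Ceacam1* (0.80) and *Alcam* (0.51) rose as well, and *Nectin2* (−0.40) and *Nectin3* (−1.72) fell. *Sirpa*, the receptor of CD47, stood between 2821 and 2944 CPM in all 6 libraries (log2 fold change 0.01, 95% interval −0.12 to 0.15, FDR 0.935).

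**Figure D5:**
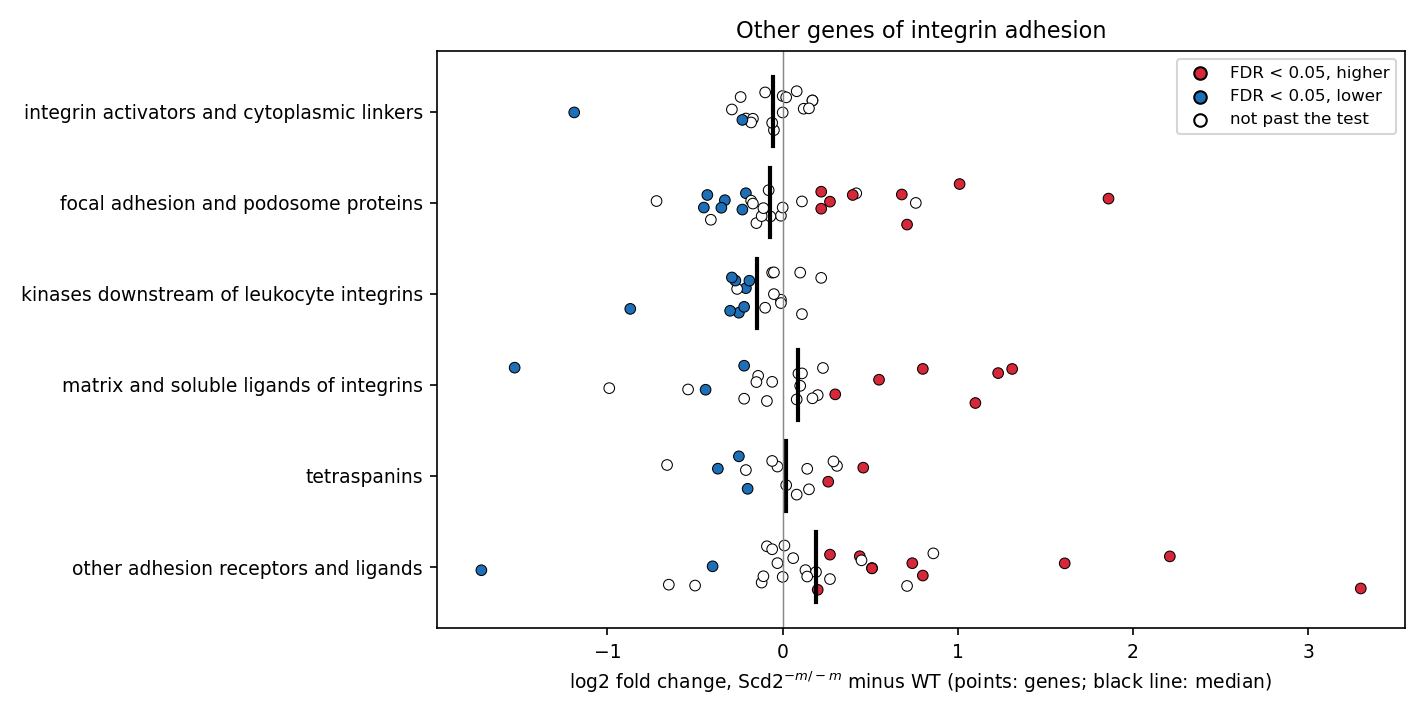
Log2 fold change (*Scd2-m/-m* minus wild-type, x axis) of the tested genes of 6 lists of integrin adhesion that leave out the 41 genes, 1 point per gene, with a black line at the median of each list. Red and blue points passed an FDR of 0.05, and the kinase list, with a median of −0.15, has 8 blue points and no red one.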

How the data were processed

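RNA was sequenced from 6 samples of unstimulated BMDMs, 3 wild-type and 3 *Scd2-m/-m*, grouped by their genotype labels. The authors aligned reads with STAR to release 76 of the Ensembl GRCm38 assembly and deposited raw counts, as whole numbers, for each gene. The sources used here do not name the counting tool or say whether it used strand. Even numbers made up 60.9% to 64.9% of the counts from 1 to 20, so what 1 count stands for is not known. The submitters' processing notes name edgeR and limma. A table of the authors' own comparison (log2 fold changes, confidence limits, p-values and log2 values per library) was not used. The limit of 3 counts given for a gene at 0 covers counting error only.

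Of 40757 entries, 276 repeats were removed, leaving 40481 genes. edgeR 4.0.16 (filterByExpr, TMM factors of 0.979 to 1.02, glmQLFit with robust estimation, glmQLFTest; limma 3.58.1, statmod 1.5.0, R 4.3.3) was run on 14778 genes with Benjamini-Hochberg adjustment over all of them, and a gene was called at an FDR below 0.05. The SE is the size of the log2 fold change over the square root of the F statistic, and 95% intervals use the t distribution. CPM are counts per 1000000 of TMM-scaled library size, and lengths and coordinates come from GENCODE vM21. The test was also run on simulated counts, whose outcome is not given here. Those counts were drawn independently for each library, so they do not cover spread shared between libraries. Alternatives were upper-quartile and RLE factors, DESeq2 1.42.0, limma-voom, no filter or at least 10 counts in every library, a block for the replicate number, omission of each library in turn, the longest transcript as length and, added after seeing the data, halved counts.

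Over all tested genes, the deviations of same-numbered libraries were hardly correlated (0.053, −0.0196 and 0.0398). These correlations do not settle whether the numbers pair the samples, and the sources used here do not say. Replicates differed by more than counting noise, and by chi-square per gene replicates 1 and 3 differed most in both genotypes (31.4 and 30.8). On the second principal component, replicates 1, 2 and 3 came in that order in wild-type (28.07, −10.44 and −21.06) and in *Scd2-m/-m* libraries (6.86, 2.49 and −5.91). With the replicate number as a block, SEs fell for *Itgal* (0.12 to 0.06) and *Itga5* (0.16 to 0.06) and rose for *Itga1* (0.27 to 0.30). The main fit has no block, so any spread shared by number stays in its error. The 41 genes and all lists were chosen with earlier results of these data known. The text gives values for every called gene of the 41, for VCAM-1 receptors, β2 subunits, CD44, CD47, the tetraspanins and the linkers, and, per list, for up to 3 called genes in each direction with the smallest p, plus *Fn1*, *Spp1*, *Thbs1*, *Sirpa* and *Scd2*. *Hic1*, a transcription factor gene, stood in the focal adhesion list by error and was not tested. *Cd58* and *Cd99* were not matched in the table.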

Additional observations from a re-analysis of the deposited data

How the results depend on the processing

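Over 14 other settings, 417 of 462 recomputed values for single genes of the 41 kept their direction and their side of the threshold, 15 passed the threshold only under the other setting, 15 no longer passed it and 15 values that were never called crossed 0. *Vcam1*, *Itgb7*, *Icam2*, *Selplg*, *Itga9*, *Itgal*, *Pecam1* and *Itgb5* were called in the same direction in all 14. *Cd44*, *Icam1*, *Tln1* and *Vcl* lost the call only when a library was left out, with FDRs of up to 0.115, 0.0936, 0.112 and 0.115, and none of the 12 changed sign. With no filter on low counts, 11 genes of the set were lower and 7 higher, and 3011 were called over all genes. The 7 higher genes include a gene that the main fit left untested for low counts and that is not named here. Of the genes tested in the main fit, *Itgax*, *Itga1*, *Itga8*, *Itgav* and *Cd9* were added at nearly the same log2 fold changes, with smaller SEs. The fit with no filter gave FDRs as low as 2.23e-79 (*Itgal*) from 3 libraries a group, so passing in it alone counts for little. Leaving out a library gave 4 to 9 lower and 4 to 5 higher genes, 1440 to 2567 calls over all genes (2585 with all 6 libraries) and 31 to 47 calls in the other adhesion lists (50 with all 6). The lowest counts came without wild-type replicate 2 (4 lower, 1490 over all genes, 31 in the lists) and without *Scd2-m/-m* replicate 2 (4, 1440 and 31). The cause was not tested. With the replicate number as a block, 5 genes of the set were higher and 8 lower, *Itga8* (FDR 0.0425) being added, and 2974 genes were called in all. Calls over all genes were thus more numerous with the block (2974 against 2585), and 3 of 6 libraries correlated best with their own number. Whether the replicate numbers pair the samples is not known. Halved counts gave 5 higher and 7 lower genes. With 3 libraries a group, *Itgad*, *Itgae* and *Itga1*, all at low levels, had SEs of 0.25 to 0.31. Their log2 fold changes of 0.53, −0.69 and −0.73 did not pass the test in the main fit, and *Itga1* passed in some other settings. With SEs of that size, lack of a call does not show that these genes were unchanged.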
